A study of Mus musculus with 2 samples.

Results

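The GC-rich miRNAs mmu-miR-709, mmu-miR-762, mmu-miR-2137, mmu-miR-2861, mmu-miR-3960 and mmu-miR-5126 were followed in cultures of B16, a mouse melanoma line that makes pigment. These 6 were chosen by name, as GC-rich miRNAs that are often bright on arrays, and all 6 were found among the 1900 miRNA probes of the array, with 1 spot each. Cells in medium with 5% serum were given an siRNA against Fam222B or a control siRNA after 24 h of culture, both with the same lipid reagent, and RNA was taken 48 h later. There was 1 array for Fam222B-siRNA cells and 1 for control-siRNA cells, which leaves the groups without replicates, replicate errors or a test of their difference. The sequence of neither siRNA is given in the labels, and the arrays do not measure the Fam222B mRNA, so the knockdown was not analysed here.

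miRNAs are short RNAs cut from hairpin transcripts, and they repress mRNAs that pair with their seed, bases 2 to 8. In mouse cells miR-709 is found in the nucleus, where it pairs with the primary transcript of miR-15a and miR-16-1 and blocks its processing. In mouse osteoblasts miR-2861 represses Hdac5 and miR-3960 represses Hoxa2, both acts favour Runx2, the main transcription factor of bone formation, and Runx2 in turn switches on the shared transcript of the pair. miR-762 has been reported in the mitochondria of mouse cardiomyocytes. Since probes differ in how well they bind, the brightness of 2 spots does not compare the amounts of 2 miRNAs, and an order of levels below is an order of signal.

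The label of the group was checked on mature sequence where it was available. No mature form was matched for miR-709 and miR-3960, so their label was not checked in this way. RefSeq (build GRCm38.p6) held the mature forms of miR-5126, miR-2861, miR-2137 and miR-762, which are shown because their base composition defines the group. They are written 5′ to 3′ with the seed in capitals.

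miR-5126: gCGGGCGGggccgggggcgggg

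miR-2861: gGGGCCUGgcggcgggcgg

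miR-2137: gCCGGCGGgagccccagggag

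miR-762: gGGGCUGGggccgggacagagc

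miR-5126, of 22 bases, had no A or U at all, a GC content of 100% that no other of the 1614 probes with a matched sequence reached. miR-2861 (19 bases) was at 94.7%, miR-2137 (21 bases) at 85.7% and miR-762 (22 bases) at 81.8%, against a median of 52.2% over the 1614 probes. The order of GC content is thus not the order of signal, in which miR-2137 stood above miR-2861. G made up most of each sequence, from 52.4% of miR-2137 to 77.3% of miR-5126, whose longest run of G had 5 bases. miR-762 and miR-2861 share their seeds with other miRNAs of the array, given below, but no pair of these 4 shares a seed. The longest stretch that any of them shares with another matched miRNA had 9 bases, as between miR-762 and miR-5126. Each of the 4 comes from the 3′ side of its hairpin, starting at base 35 to 52 of 66 to 82.

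The hairpin of miR-3960, the partner of miR-2861 in osteoblasts, is shown for its repeat, with the run of GGC in capitals.

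Mir3960 hairpin: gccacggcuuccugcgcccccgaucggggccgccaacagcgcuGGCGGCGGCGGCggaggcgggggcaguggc

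Its 73 bases were 82.2% G and C. GGC, read on the hairpin's own strand, stood 4 times in a row, which 2 of the 1005 RefSeq hairpins (0.199%) hold. In RefSeq the Mir2861 and Mir3960 hairpins lie on the minus strand of chromosome 2, 11 bases apart, next to Cdk9, the kinase that releases paused RNA polymerase. Mir709 lies on chromosome 8 within the span of Rfx1, a transcription factor gene, and Mir762 on chromosome 7 within that of Bcl7c, which encodes a subunit of a chromatin remodelling complex. Mir2137 lies on chromosome X within Zfp185, and Mir5126 on chromosome 1 within Dner, which encodes a Notch ligand of neurons. Whether these stretches are exonic or intronic was not resolved here.

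All 6 miRNAs were bright in both cultures, and with the blank spots as background and equal medians none differed by as much as 1.5-fold. With the scanner's local background column in place of the blank spots, all 6 were lower in Fam222B-siRNA cells, as given below. Net signal is the median intensity of a spot minus the mean of the 896 blank spots of its array, which was 69.9 units on the Fam222B-siRNA array and 70.3 units on the control-siRNA array. The spot SD given beside it combines the CV of 5 bright control probes printed 8 times per array (4.78% on the Fam222B-siRNA array and 4.67% on the control-siRNA array) with the scatter of the blank spots (SD of 1.66 units on the Fam222B-siRNA array and 1.54 units on the control-siRNA array). It covers the spread between spots within an array and leaves out that between cultures, RNA preparations and hybridisations.

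mmu-miR-5126 was the brightest of the 6, at 1205 ± 57.6 net units in Fam222B-siRNA cells and 1288 ± 60.2 units in control-siRNA cells (spot SD, 1 spot each), and ranked 9th of 1900 on both arrays. mmu-miR-2137 gave 999.6 ± 47.8 units in Fam222B-siRNA cells, rank 11, and 1108 ± 51.8 units in control-siRNA cells, rank 10. These 2 stood apart from the rest at about 1000 units and above. mmu-miR-2861 gave 616 ± 29.4 units (rank 21) in Fam222B-siRNA cells and 658 ± 30.8 units (rank 18) in control-siRNA cells. mmu-miR-709 gave 356 ± 17.1 units (rank 36) in Fam222B-siRNA cells and 390.1 ± 18.3 units (rank 31) in control-siRNA cells. It lay beside miR-3960 on both arrays. mmu-miR-3960 gave 364 ± 17.5 units (rank 34) in Fam222B-siRNA cells and 336 ± 15.8 units (rank 36) in control-siRNA cells, the only member whose signal before scaling was the higher one in Fam222B-siRNA cells. mmu-miR-762 was the dimmest, at 233 ± 11.2 units (rank 58) in Fam222B-siRNA cells and 237 ± 11.2 units (rank 54) in control-siRNA cells.

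**Figure D1:**
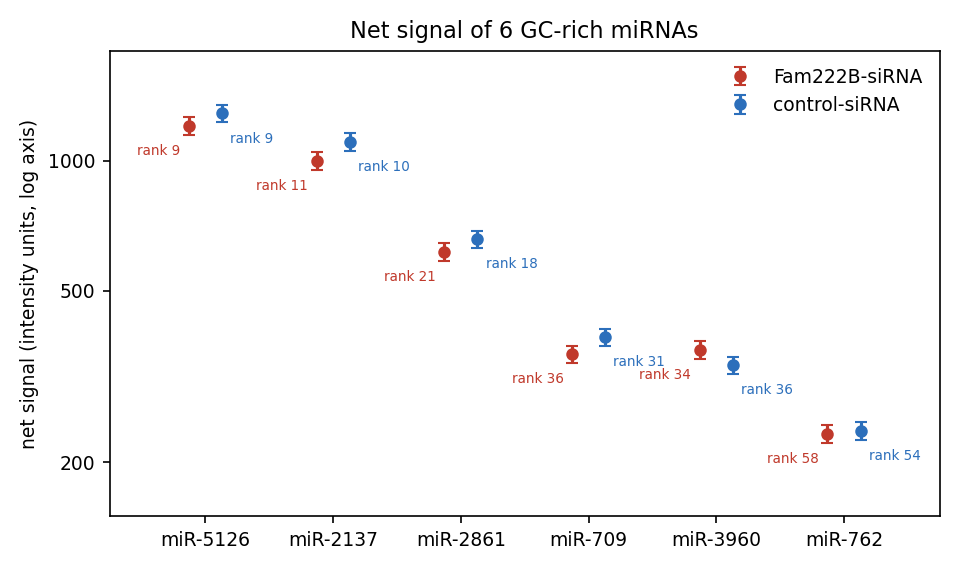
Net signal in intensity units (log axis) of the 6 members on the Fam222B-siRNA array (red, left of each pair) and the control-siRNA array (blue, right of each pair), with bars of 1 spot SD and the rank among 1900 miRNA probes. The order is the same on both arrays except for miR-709 and miR-3960, which change places.

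The median probe of the array had only 2.63 net units in Fam222B-siRNA cells and 3.75 units in control-siRNA cells, so the dimmest member was far above it. Together the 6 gave 3774 net units in Fam222B-siRNA cells and 4017 units in control-siRNA cells, which was 2.51% and 2.66% of the positive net signal of all miRNA probes on those arrays. The order of signal was miR-5126, miR-2137, miR-2861, then miR-709 and miR-3960, then miR-762. In Fam222B-siRNA cells miR-3960 and miR-709 did not differ beyond the spot SD (ratio 1.02, 0.34 spot SD). In control-siRNA cells miR-709 over miR-3960 was 1.16, at 2.26 spot SD, and miR-5126 over miR-2137 was 1.21 in Fam222B-siRNA cells and 1.16 in control-siRNA cells (2.77 and 2.27 spot SD). The other steps of the order were past 5 spot SD on each array.

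**Figure D2:**
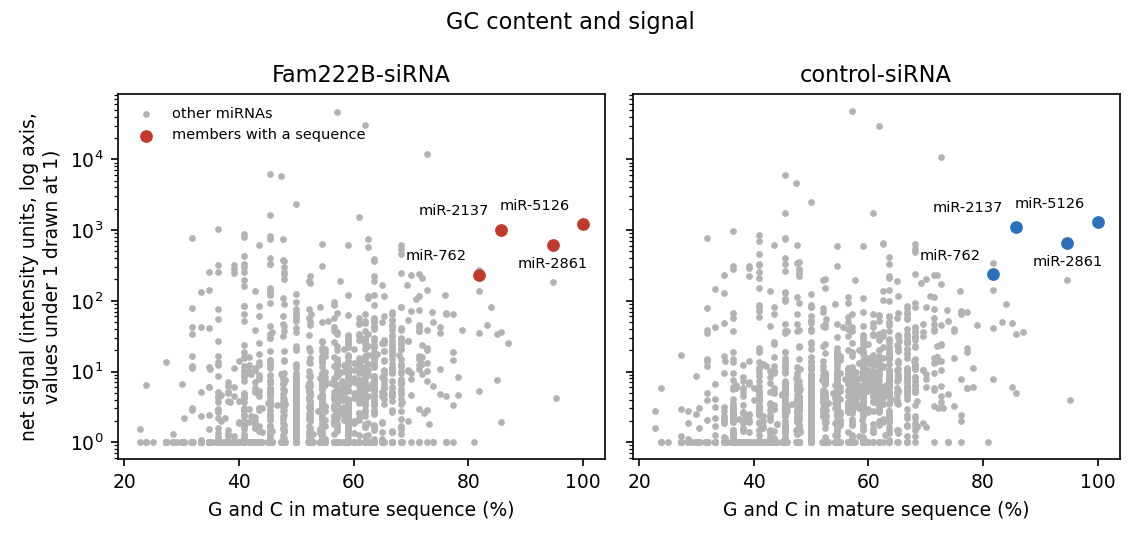
GC content of the mature sequence (%) against net signal (intensity units, log axis, values under 1 drawn at 1) for 1614 miRNA probes with a matched sequence, on the Fam222B-siRNA array (left) and the control-siRNA array (right). The 4 members with a sequence lie at 81.8% GC and above with 233 to 1288 net units, while other miRNAs of like GC content spread over a wide range of signal.

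GC-rich probes were brighter in general. The median net signal of the 19 matched miRNAs with at least 80% GC was 45.5 units in Fam222B-siRNA cells and 49.8 units in control-siRNA cells, and 8 of them (42.1%) reached 100 units on each array. Those 8 include the 4 members with a sequence, which were chosen as often bright on arrays. Of the 34 non-members with at least 75% GC, 5 reached 100 units on both arrays. In the class from 50 to 60% GC, 574 probes had medians of 2.63 and 3.75 units on the Fam222B-siRNA and control-siRNA arrays. Across the 1614 probes Spearman's rho between GC content and net signal was 0.40 on the Fam222B-siRNA array and 0.41 on the control-siRNA array. These points share an array and its background, and miRNAs of a family are not independent. Leaving out the 4 members, the other 15 miRNAs with at least 80% GC still had medians of 35.4 units in Fam222B-siRNA cells and 41.4 units in control-siRNA cells. GC content did not fix the signal, however: miR-8109, named after its values were seen, has 95.2% GC and gave 4.21 units in Fam222B-siRNA cells and 3.96 units in control-siRNA cells.

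The comparison of Fam222B-siRNA with control-siRNA cells asks which miRNA levels differ after the Fam222B siRNA. Differences are log2 of net signal in Fam222B-siRNA over control-siRNA cells, after both arrays were brought to equal medians over the 823 miRNAs above the mean plus 2 SD of the blank spots on each array. This scaling adds 0.11 to every log2 ratio. None of the 6 reached 2-fold, which 1.94% of the 823 passed upward and 1.22% downward, and none reached 1.5-fold, which 5.59% passed upward and 6.44% downward. Most miRNAs past these folds were dim, and 0% of the 96 bright miRNAs, those at 100 net units or more on each array, reached 2-fold. The miRNAs at least 2-fold higher were not spread evenly over the 32 blocks of spots. Most were printed in blocks 17, 18, 25 and 26, such as miR-7677-5p (block 18) at 2.22 and miR-3062-5p (block 25) at 2.17. Those at least 2-fold lower were spread over more blocks.

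miR-3960 had the widest difference, 0.23 (spot SD 0.097), a 1.17-fold ratio whose range of 2 spot SD ran from 1.02 to 1.34. It was the only member past 2 spot SD on this scale, and it was not past it with the No Probe spots as background (0.19), with no scaling (0.12), with bright miRNAs as the scale (0.099) or after normexp and quantile normalization (0.018). Relative to its block of the array, whose miRNAs were mostly dimmer, miR-2137, at -0.27, was also past 2 spot SD. Of the 823 miRNAs 7.65% were past 2 spot SD upward and 2.31% downward, and of the 96 bright ones 26% and 2.08%, so 1 of 6 is no more than the bright miRNAs show. Its difference stayed positive in the 12 alternatives that did not use the scanner's local background column, from 0.018 to 0.31, and was -0.58 with it.

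miR-762 had a difference of 0.085 (spot SD 0.097), which was -0.024 with no scaling, -0.038 after quantile normalization, -0.042 when bright miRNAs set the scale and -0.099 against its own block of the array. miR-5126 was at 0.013 and miR-2861 at 0.012 (spot SD 0.096 and 0.097). Both signs turned with the background and the scaling. Without the local background column the alternatives ran from -0.11 to 0.076 for miR-5126 and from -0.15 to 0.074 for miR-2861, and with it the differences were -2.27 and -2.70. miR-709 was at -0.023 (spot SD 0.097) and miR-2137 at -0.040 (spot SD 0.096), and both were positive only when the spike controls set the scale, at 0.039 and 0.022. For these 5 miRNAs the ranges of 2 spot SD ran between 0.851-fold and 1.21-fold, which leaves changes of that size between the arrays within spot error.

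**Figure D3:**
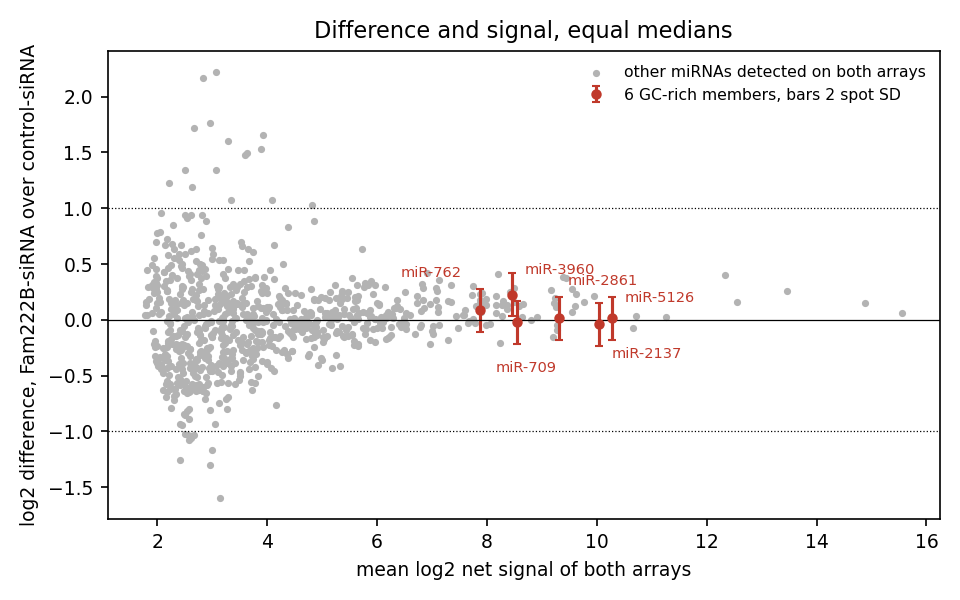
Log2 difference of Fam222B-siRNA over control-siRNA (equal medians) against the mean log2 net signal of both arrays, for the 823 miRNAs above blank on both. The 6 members (red, bars of 2 spot SD) lie between -0.040 and 0.23, inside the dotted lines at 2-fold, in the bright part of the plot where differences are narrow.

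The median difference of the 6 was 0.013, against 0 over the 823 miRNAs, by construction, and 0.13 over the 96 bright ones. Of the 823 miRNAs 49.9% lay above 0, of the bright ones 77.1%, and of the 6 members 4, and 5 of the 6 lay below the bright median. Counted from the lowest, 16 of the 96 bright miRNAs had a lower difference than miR-2137, 19 than miR-709, 23 than miR-2861, 24 than miR-5126, 39 than miR-762 and 75 than miR-3960. Other bright GC-rich miRNAs lay near the members. The 30 bright non-members with at least 60% GC had a median of 0.035, and the 51 bright miRNAs below 60% GC had a median of 0.15. Over the 81 bright non-members with a sequence Spearman's rho between GC content and the difference was -0.26, and -0.24 after quantile normalization. These miRNAs share both arrays, and GC content also goes with signal.

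**Figure D4:**
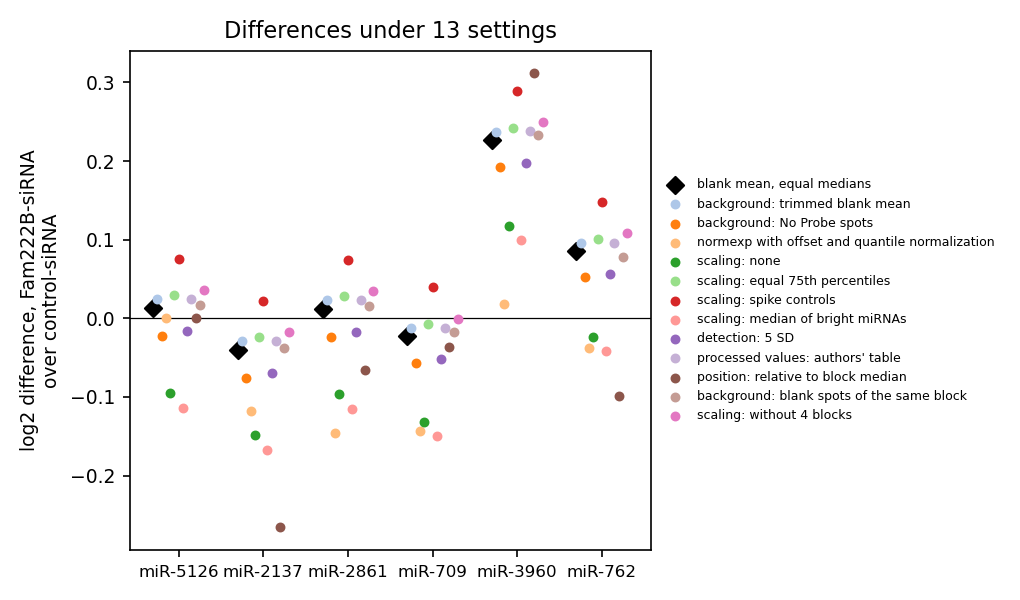
Log2 difference of Fam222B-siRNA over control-siRNA for each member under the setting with blank mean and equal medians (black diamonds) and 12 alternatives (coloured points). Only miR-3960 keeps 1 sign under all 13, from 0.018 to 0.31, and the alternative with the local background column, where all 6 are negative, is left off the plot.

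Before scaling the bone pair had opposite signs, with miR-2861 at -0.097 and miR-3960 at 0.12. At equal medians both were above 0, at 0.012 and 0.23. miR-3960 over miR-2861 was 0.592 in Fam222B-siRNA cells and 0.510 in control-siRNA cells, a change of 0.21 on the log2 scale (spot SD 0.14) that is the same under any common scaling of the arrays. With the blank mean as background this change lies under 2 spot SD, but it moves with background and position. Relative to their blocks miR-3960 was at 0.31 and miR-2861 at -0.065. With the local background column they were at -0.58 and -2.70. Before scaling the 5 repeated control probes differed by -0.22 to -0.14, each with 8 spots per array, while miR-3960 differed by 0.12 and the other 5 members by -0.15 to -0.024.

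Set against the other miRNAs of its block of spots, a member's difference could move. miR-2137 was printed in block 18, where the 34 miRNAs above blank on both arrays had a median difference of 0.23, and relative to them it was at -0.27. miR-3960 was printed in block 6, whose 31 such miRNAs had a median of -0.085, so against its neighbours it was at 0.31. miR-762 was printed in block 28, where 34 such miRNAs had a median of 0.18, and relative to them it was at -0.099. Most miRNAs of these blocks were dimmer than the members, so a block median is mostly that of dim miRNAs. In block 6 the other bright miRNAs ran from -0.0025 for miR-130a-3p to 0.40 for miR-3963. In block 18 miR-1902, the only other bright miRNA, was at 0.021. In block 28 the other bright miRNAs ran from 0.17 for miR-30e-5p to 0.23 for let-7b-5p, near the block median. The part of position in these results was not tested. With blank spots of the same block as background, miR-2137 was at -0.038, miR-3960 at 0.23 and miR-762 at 0.078.

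The scanner's local background column gave a second reading of the members. It was higher in Fam222B-siRNA cells at all 6 spots, where 81.2% of the 96 bright miRNAs were higher. At miR-3960 it was 229.7 units in Fam222B-siRNA cells and 106 units in control-siRNA cells, a log2 ratio of 1.11, the widest of the 6. At miR-5126 it was 1138 units in Fam222B-siRNA cells and 714.3 units in control-siRNA cells (0.67), and at miR-2861 it was 624 units and 341 units on those arrays (0.87). miR-709 had the narrowest ratio, 0.31. The median log2 ratio was 0.67 over the 6 and 0.43 over the 96, while around the blank spots it was -0.13. This column reached 52.9 to 91.1% of the spot's own signal for the members in Fam222B-siRNA cells and 26.2 to 61.9% in control-siRNA cells. Subtracting it therefore put all 6 at negative differences, from -2.70 for miR-2861 to -0.58 for miR-3960, with a median of -1.38. Over the bright miRNAs that kept a ratio the median was -0.94. Where the column exceeded the spot no ratio exists, as for let-7a-5p (1100 over 1093 units in Fam222B-siRNA cells). The bright median leaves such miRNAs out, so it does not show whether the members fell further than bright miRNAs in general.

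**Figure D5:**
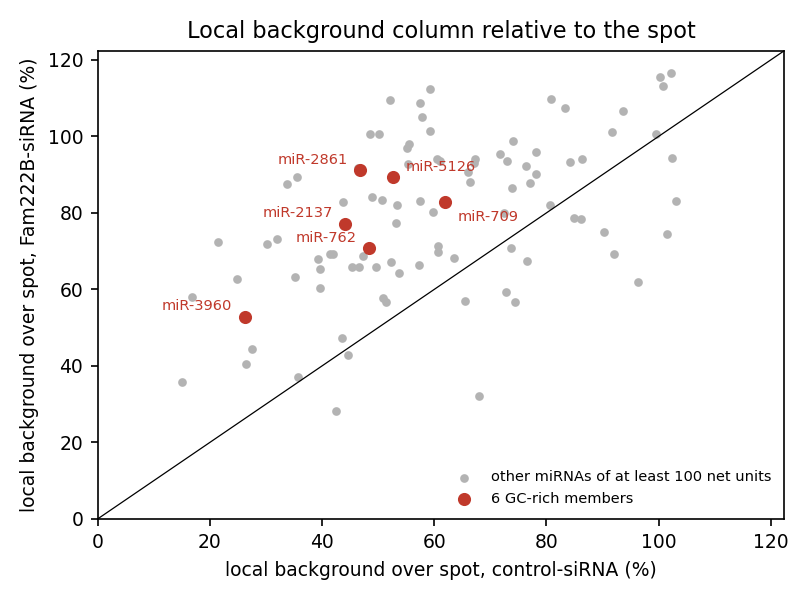
Local background as a percentage of the spot's signal in Fam222B-siRNA cells (vertical) and in control-siRNA cells (horizontal) for the 96 bright miRNAs (100 net units or more on each array), with the line of equality. All 6 members (red) lie above the line, with miR-3960 lowest at 52.9% and 26.2%.

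The authors' deposited table gave nearly the same ratios of Fam222B-siRNA over control-siRNA. In the authors' deposited table miR-3960 stood at 1346 in Fam222B-siRNA cells and 1142 in control-siRNA cells (log2 0.24), and the other 5 members had log2 ratios from -0.029 for miR-2137 to 0.096 for miR-762. That table is a straight line in the same spot values, so it is no separate measurement.

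The 2 miRNAs nearest to each member were taken by distance in log2 net signal over both arrays. For miR-762 they were miR-149-3p (distance 0.023), itself 81.8% GC, at 234 units in Fam222B-siRNA cells and 240.5 units in control-siRNA cells, and miR-486b-3p (0.045). miR-3960 lay closest to miR-3072-3p (0.048) and miR-23a-3p (0.068), whose differences of 0.25 and 0.28 are like its own because likeness was measured on both arrays. miR-2861 lay closest to miR-30b-5p (0.061) and miR-6955-5p (0.093), and miR-709 to miR-30d-5p (0.12) and miR-17-5p (0.15). miR-2137 and miR-5126 had let-7a-5p and each other as neighbours, at distances of 0.22 to 0.49. Seeds could be compared only for members with a mature sequence, which leaves out miR-709 and miR-3960. miRNAs that share a seed with one of those members were dim: miR-7648-3p, with the seed of miR-762, gave 35.7 units in Fam222B-siRNA cells and 34.03 units in control-siRNA cells. miR-6940-5p, also with that seed, and miR-3091-3p, with the seed of miR-2861, stayed under 4 units on both arrays.

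Products of the miR-15a and miR-16-1 hairpins, whose precursor miR-709 binds in mouse nuclei, were detected on both arrays in 3 of 4 cases, with 3 differences above 0, where 49.9% of the 823 miRNAs and 77.1% of the bright ones lay above 0. Their median was 0.097, and 0.038 after normexp and quantile normalization, and none was past 2 spot SD. miR-16-5p, which restrains cell cycle genes, was at 741 units in Fam222B-siRNA cells and 760 units in control-siRNA cells (0.073, and -0.13 after quantile normalization). Its name carries no hairpin number, so this signal cannot be assigned to the miR-16-1 hairpin alone. miR-15a-5p, of the same seed family, was at 85.2 units in Fam222B-siRNA cells and 85.9 units in control-siRNA cells (0.097, spot SD 0.10). The passenger strands were near the blank level, with miR-15a-3p at 4.02 units in Fam222B-siRNA cells and 3.56 units in control-siRNA cells. miR-16-1-3p was above the threshold only in Fam222B-siRNA cells, at 5.55 units against 2.06 units in control-siRNA cells.

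Of 10 miRNAs known to repress Runx2 in mouse osteoblasts, the factor tied to miR-2861 and miR-3960, 6 were detected on both arrays, 4 above 0 (49.9% of all 823) and 2 below, with a median of 0.11, and 0.029 after normexp and quantile normalization. Past 2 spot SD were 2 higher (7.65% of all 823) and 1 lower (2.31%), and the lower one, miR-218-5p, was also past 2-fold (1.22%). miR-30c-5p was the brightest, at 616 units in Fam222B-siRNA cells and 614 units in control-siRNA cells (0.11). miR-338-3p had the highest difference, 0.61 (spot SD 0.27), at 15.99 units in Fam222B-siRNA cells and 11.3 units in control-siRNA cells. It was printed in block 25, where differences ran from -1.59 for miR-34c-3p to 2.17 for miR-3062-5p and most lay above 0. The part of position in its difference was not tested. miR-218-5p had the lowest, -1.17 (spot SD 0.51), at 5.11 units in Fam222B-siRNA cells and 12.4 units in control-siRNA cells, close to the blank level.

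Among 12 other miRNAs listed as GC-rich, 11 had a probe and all 11 were detected on both arrays, 4 above 0 (49.9% of all 823) and 7 below, with a median of -0.076. None was past 2-fold, and past 2 spot SD were 1 higher, miR-1894-3p, and 1 lower, miR-671-5p at -0.34 (7.65% and 2.31% of all 823). miR-149-3p was the brightest (0.069, and -0.052 after quantile normalization), and the others stayed under 100 units. Only miR-149-3p, at 81.8% GC, reached the GC content of the members with a sequence. The others with a matched sequence ran from 59.1% for miR-1892 to 75% for miR-705. miR-1894-3p had the highest difference, 0.50 (spot SD 0.19), at 22.4 units in Fam222B-siRNA cells and 17.1 units in control-siRNA cells. It was printed in block 26, where differences ran from -0.44 for miR-96-5p to 1.66 for miR-1971 and most lay above 0. The part of position in its difference was not tested. miR-1892 had the lowest, -0.46 (spot SD 0.45), at 6.44 units in Fam222B-siRNA cells and 9.53 units in control-siRNA cells.

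The label of a pigment cell line was checked against marker miRNAs. The melanocyte miRNA miR-211-5p gave 326 units in Fam222B-siRNA cells and 264 units in control-siRNA cells (0.41), and miR-204-5p, of the same seed family, gave 30.2 units in Fam222B-siRNA cells and 36.3 units in control-siRNA cells (-0.15). All 4 fibroblast and smooth muscle miRNAs were detected on both arrays, with a sum of 180.01 units in Fam222B-siRNA cells and 215 units in control-siRNA cells, of which miR-143-3p gave 112 and 140 units. The liver miRNA miR-122-5p gave 1.09 and 0.28 units on those arrays, below the threshold. With negative net values counted as 0, the 3 blood cell miRNAs summed to 12.8 units in Fam222B-siRNA cells and 20.7 units in control-siRNA cells. The 2 muscle miRNAs summed in this way to 1.70 and 8.59 units on those arrays. Of the blood cell miRNAs, miR-451a was detected on both arrays, at 12.2 units in Fam222B-siRNA cells and 13.5 units in control-siRNA cells. The blood cell miRNA miR-223-3p and the muscle miRNA miR-206-3p passed the threshold only in control-siRNA cells, at 5.05 and 5.63 units. In RNA of whole cultures, fewer cells with a miRNA and less of it per cell cannot be told apart.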

How the data were processed

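RNA labelled with Cy5 was hybridised to 1-colour Toray 3D-Gene miRNA arrays, per the labels' protocols, 1 array per group. Per the file headers, the deposited files hold a median intensity at 635 nm for each of 3200 spots and for its local background. The scanner software is not given in the sources used here. The authors' table of intensity values for the same arrays is linear in the spot values, with a background of 69.8 units (Fam222B-siRNA) and 70.2 units (control-siRNA) and factors of 3.69 and 3.40. Its medians are 34.6 over 961 probes and 25 over 1220. Its scale is linear and not centred per miRNA.

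The mean of the blank spots was subtracted and arrays were scaled to equal medians. A miRNA was detected above the blank mean plus 2 SD (73.2 units on the Fam222B-siRNA array and 73.4 on the control-siRNA array), which 877 and 1056 miRNAs passed. Spots with an NG flag (1 per array) were left out of detection. The members, the lists and 2 of the 13 alternatives were chosen with earlier results of these data known. Named miRNAs are the 6 members, the 2 nearest to each in signal, and the highest, lowest and brightest of each list. Also named are those that share a seed or a run of at least 12 bases (0 pairs) with a member that had a mature sequence. The alternative with normexp (offset 50) and quantile normalization used limma 3.58.1 in R 4.3.3, and other steps used Python 3.11.15 with pandas 2.3.3. Probes were matched to RefSeq by name, and of the 6 members 4 had a mature sequence there. On simulated arrays with known changes, the error over 97 bright miRNAs had a median of -0.041 and an SD of 0.11 on the log2 scale. The simulated noise was drawn from the spot CV and blank SD of the control-siRNA array. That SD therefore holds spot error only, and it leaves out block, local background and culture effects. The number of arrays limits the precision.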

Additional observations from a re-analysis of the deposited data

How the results depend on the processing

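No paired analysis was possible because each group had 1 array. The median difference of the 6 members, 0.013, moved by more than 1 spot SD with no scaling (-0.096), with the median of bright miRNAs as the scale (-0.11) and with the local background column (-1.38), and stayed between -0.078 and 0.075 in the other alternatives. The difference of miR-3960 turned to -0.58 with the local background column. The counts of miRNAs at least 2-fold higher and lower in Fam222B-siRNA cells, 16 and 10, became 26 and 22 with the trimmed blank mean, 27 and 19 with the No Probe spots, 69 and 105 with the local background column, and 26 and 22 with the authors' table. They were 0 and 0 after normexp and quantile normalization, a setting that changes background, offset and normalization together, 3 and 0 with detection at 5 SD, which leaves 486 miRNAs, and 46 and 53 at 1.5-fold. With spike control scaling the lower count became 5. The added alternatives, blank spots of the same block and scaling without 4 blocks that an earlier analysis had picked, were chosen after seeing the data and gave medians of 0.016 and 0.035. Other causes were not tested. The members lie far above the blank spots, but the choice of the local background column limits what can be said of them.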

Other observations

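Within the 38 matched miRNAs of at least 75% GC, the class with more G had the higher median signal in both cultures, with exceptions on both sides. This split was chosen after the values had been seen. Leaving out the members, 16 miRNAs with at least 50% G had a median net signal of 55.4 units in Fam222B-siRNA cells and 57.5 units in control-siRNA cells. The 18 with less than 50% G had medians of 4.72 units in Fam222B-siRNA cells and 6.02 units in control-siRNA cells. All 4 members with a sequence fall in the first class. Over all 1614 matched probes Spearman's rho with net signal was 0.22 for the share of G and 0.065 for the share of C in Fam222B-siRNA cells, and 0.20 and 0.085 in control-siRNA cells. Between the arrays, the 28 non-members of at least 75% GC detected on both had a median difference of -0.025, with 12 above 0 and 16 below.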
